A study of Mus musculus with 8 samples.

Results

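The 9 genes described here set how a cell passes from rest into the division cycle: the D-type cyclins Ccnd1, Ccnd2 and Ccnd3, the cyclin-dependent kinase (CDK) inhibitors Cdkn1a, Cdkn1b, Cdkn2c and Cdkn2d, and the Myc transcription factor genes Myc and Mycn. They were taken by name from the 16791 genes of a single-cell RNA-seq count table of mouse heart endothelium, and all 9 were in it. The table covers 8 adult mice, 4 healthy (227, 228, 239 and 240) and 4 at 7 days after myocardial infarction (MI; 244, 250, 255 and 256), with 1 10X Chromium 3' library per mouse. All mice carried Pdgfb-iCreERT2 and the R26R-Brainbow2.1 (Confetti) reporter and received 1 intraperitoneal dose of tamoxifen (150 mg/kg) 21 days before the ventricles were collected. In the MI group the left anterior descending artery was ligated permanently 14 days after tamoxifen. The authors state that the healthy controls had no surgery, so infarction and the operation itself cannot be told apart. Cells were sorted as CD31+Confetti+Podoplanin-, so the data hold endothelial cells in which the Pdgfb-driven Cre had recombined the reporter, and not the whole endothelium.

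D-type cyclins are made in response to growth signals and activate CDK4 and CDK6, which phosphorylate the retinoblastoma protein and release E2F factors that switch on the genes of DNA replication. Cdkn2c (p18INK4c) and Cdkn2d (p19INK4d) belong to the INK4 family, which binds CDK4 and CDK6 directly, whereas Cdkn1a (p21CIP1, a p53 target) and Cdkn1b (p27KIP1, a protein of resting cells) belong to the CIP/KIP family, which also inhibits CDK2. Myc and Mycn encode related proteins that pair with Max, bind the E-box and raise ribosome production and metabolism, and Myc is known as a regulator of endothelial growth and sprouting in vessel development.

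RefSeq promoter windows, the 250 bases before a transcription start in build GRCm38.p6, were found for 6 of the 9 genes. Both strands were searched for the E2F letters TTTCCCGC, TTTCGCGC, TTTGCCGC or TTTGGCGC, for the E-box CACGTG, for CCAAT and for the cell cycle homology region (CHR) TTTGAA. Of 32851 windows of that length, 1.86% held an E2F match, 6.02% an E-box, 33.8% CCAAT and 16.0% a CHR match. The Mycn window held 3 E2F matches, some of which share bases, and 1 CHR match, the Cdkn1b window 2 CCAAT matches, and the Cdkn2d window 1. The windows of Cdkn2c and Cdkn1a held none of these letters, and of both Ccnd3 windows the downstream one held 1 CCAAT match. The parts of 3 windows that no annotated exon covers are printed as examples: Mycn at chr12:12941915-12942086 (minus strand), Cdkn1b at chr6:134920151-134920400 (plus strand) and Cdkn2d at chr9:21291408-21291459 (minus strand). They run 5' to 3', and capitals mark E2F matches in Mycn and CCAAT matches, on either strand, in the other two.
Mycn: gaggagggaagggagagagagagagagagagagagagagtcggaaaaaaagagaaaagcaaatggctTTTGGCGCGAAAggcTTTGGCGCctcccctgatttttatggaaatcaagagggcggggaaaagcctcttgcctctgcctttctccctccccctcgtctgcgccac
Cdkn1b: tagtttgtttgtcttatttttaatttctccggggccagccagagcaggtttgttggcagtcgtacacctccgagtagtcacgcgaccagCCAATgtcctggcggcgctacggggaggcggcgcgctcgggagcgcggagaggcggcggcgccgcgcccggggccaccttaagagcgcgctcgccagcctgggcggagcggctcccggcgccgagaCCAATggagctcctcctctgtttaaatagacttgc
Cdkn2d: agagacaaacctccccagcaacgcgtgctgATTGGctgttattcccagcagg

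In build mm10 the genes lie at chr7:144929931-144939925 (Ccnd1), chr6:127125162-127152193 (Ccnd2), chr17:47505051-47599691 (Ccnd3), chr17:29090976-29100727 (Cdkn1a), chr6:134920401-134925513 (Cdkn1b), chr4:109660876-109667189 (Cdkn2c), chr9:21288410-21291407 (Cdkn2d), chr15:61985391-61990374 (Myc) and chr12:12936093-12941914 (Mycn). Each span runs over the exons and introns of the whole gene, and the 3' assay reads mainly its last exon.

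Of 31028 cells, 2209 (7.12%) carried markers of another cell type and were set aside, most of them haematopoietic (1406 cells) or pericytes and smooth muscle (505 cells). The other 28819 cells, 12837 healthy and 15982 MI, were used. Endothelial Pecam1, Kdr, Cdh5, Tie1 and Egfl7 were at 310.3 to 1752 UMIs per 1000000 counted (CPM) in every mouse. The MI libraries were deeper, with 3396 to 4670 median unique molecular identifiers (UMIs) per cell against 1467 to 2074 in healthy mice, so depth and MI cannot be told apart in unthinned shares of cells. Haematopoietic markers (20 genes) left in the endothelial cells summed to 23.1 to 174 CPM in healthy and 293 to 507 CPM in MI mice. Healthy 228 shared 2041 cell barcodes with Healthy 239, and 2030 of these had at least 90% of their UMIs matched in the other library. In the same way 301 of 316 shared barcodes matched between Healthy 227 and 228, and 2 of 20 between Healthy 239 and 240. Other pairs of mice shared 10 to 40 barcodes without such copies. Copied cells made up 53.6% of the endothelial cells of Healthy 228, where they held fewer UMIs than in Healthy 239. Which library they came from is not known, and without the copies in every library Healthy 239 kept 1735 of 3565 endothelial cells. A call against or within healthy mice that was lost without copied cells is named as such below. When the copied cells of every library were left out, Healthy 228 and 239 kept 15 and 9 cells with Mki67 or Top2a, and Healthy 228 kept 19 of the Apln cells described below. Sums under 20 cells were not fitted, so in those fits the loss of copies and the loss of these mice cannot be told apart.

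For each mouse the UMIs of a gene were summed over cells and are given per 1000000 UMIs of those cells. Differences are log2 fold changes ± standard error, fitted by edgeR (quasi-likelihood F test, p adjusted by Benjamini and Hochberg over every gene tested), and a gene was called at an adjusted p under 0.05. In such sums a change in the share of cells of a kind and a change in RNA per cell cannot be told apart. The labels give the mice as separate animals, but healthy libraries that share copied cells (above) are not fully independent in the main fits.

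MI hearts were first compared with healthy hearts over all endothelial cells. Here Myc, Cdkn2c and Cdkn2d were higher post-MI and Cdkn1b and Ccnd2 lower. Thus 3 of the 9 genes were higher and 2 lower, where 19.4% of the 12266 genes tested were called higher and 18.9% lower. The median log2 difference of the 9 was 0.16, and that of all genes tested was -0.02.

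Among the D-type cyclins, Ccnd2 was at 225, 232, 248 and 268 CPM in Healthy 227, 228, 239 and 240 and at 150, 194, 209 and 214 CPM in MI 244, 250, 255 and 256. Every MI mouse was below every healthy mouse, and the log2 difference was -0.43 ± 0.12 (adjusted p = 0.0160). The call for Ccnd2 was lost when cells were thinned to 1000 UMIs (-0.26, adjusted p = 0.136) and without the copied cells of every library (-0.30, adjusted p = 0.0945). Ccnd1, the cyclin most widely induced by growth factors, was at 324, 311, 279 and 292 CPM in healthy and 441, 400.1, 333 and 254 CPM in MI mice. MI 256 lay below all healthy mice and the other MI mice above them, and the difference of 0.16 ± 0.15 did not pass the test (adjusted p = 0.413). Ccnd3 was at 178 ± 23.7 CPM in healthy and 217 ± 27.1 CPM in MI mice (mean ± SD, n = 4 each), and the groups overlapped (log2 difference 0.20 ± 0.11, adjusted p = 0.178).

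The INK4 genes were higher post-MI. Cdkn2c was at 31.9, 25.1, 21.2 and 24.4 CPM in healthy and 68.1, 68.9, 64.1 and 54.0 CPM in MI mice, a 2.49-fold ratio of means. The lowest MI mouse was well above the highest healthy mouse, and the log2 difference was 1.24 ± 0.13 (adjusted p = 0.000193). Cdkn2d was at 43.5, 39.0, 35.8 and 39.2 CPM in healthy and 59.3, 65.0, 56.6 and 50.6 CPM in MI mice. These groups did not overlap either, with a log2 difference of 0.47 ± 0.09 (adjusted p = 0.00369).

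Of the CIP/KIP genes, Cdkn1b was lower post-MI. It was at 102, 73.5, 68.6 and 53.7 CPM in healthy and 40.3, 39.0, 47.0 and 40.6 CPM in MI mice. The healthy mice spread over a wide range, the MI mice lay close together below it, and the log2 difference was -0.91 ± 0.16 (adjusted p = 0.00226). Cdkn1a was at 362, 455, 568 and 533 CPM in healthy and 458, 573, 471 and 249.5 CPM in MI mice. The groups overlapped, MI 256 was the lowest of all 8 mice, and the difference did not pass the test (-0.22 ± 0.22, adjusted p = 0.455).

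Of the Myc genes, Myc was higher post-MI and Mycn did not pass the test. Myc was at 0.314, 0.570, 1.45 and 0.933 CPM in healthy mice, which is 2, 4, 11 and 7 UMIs in all their endothelial cells, and at 15.1, 11.4, 19.3 and 8.67 CPM in MI mice (353, 270, 417 and 124 UMIs). The ratio of means was 16.7-fold and the log2 difference 3.93 ± 0.38 (adjusted p = 0.000150), sizes that rest on the 24 healthy UMIs and so are not precise. Beside this result, the haematopoietic markers were also higher in the MI cells (above), and all 20 had a UMI in both groups. In the cells set aside as haematopoietic, Myc was at 19.4 ± 4.69 CPM in healthy and 21.5 ± 7.36 CPM in MI mice, while the marker sum there was 42640 and 37360 CPM. With no cell set aside the log2 difference of Myc was 2.55 (adjusted p = 0.00185). Mycn was at 56.7, 72.4, 124 and 143 CPM in healthy and 71.9, 89.1, 74.0 and 61.1 CPM in MI mice. Healthy 239 and 240 were above all other mice, and the difference (-0.50 ± 0.25, adjusted p = 0.142) passed the test only without Healthy 227 (-0.70, adjusted p = 0.0272).

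**Figure D1:**
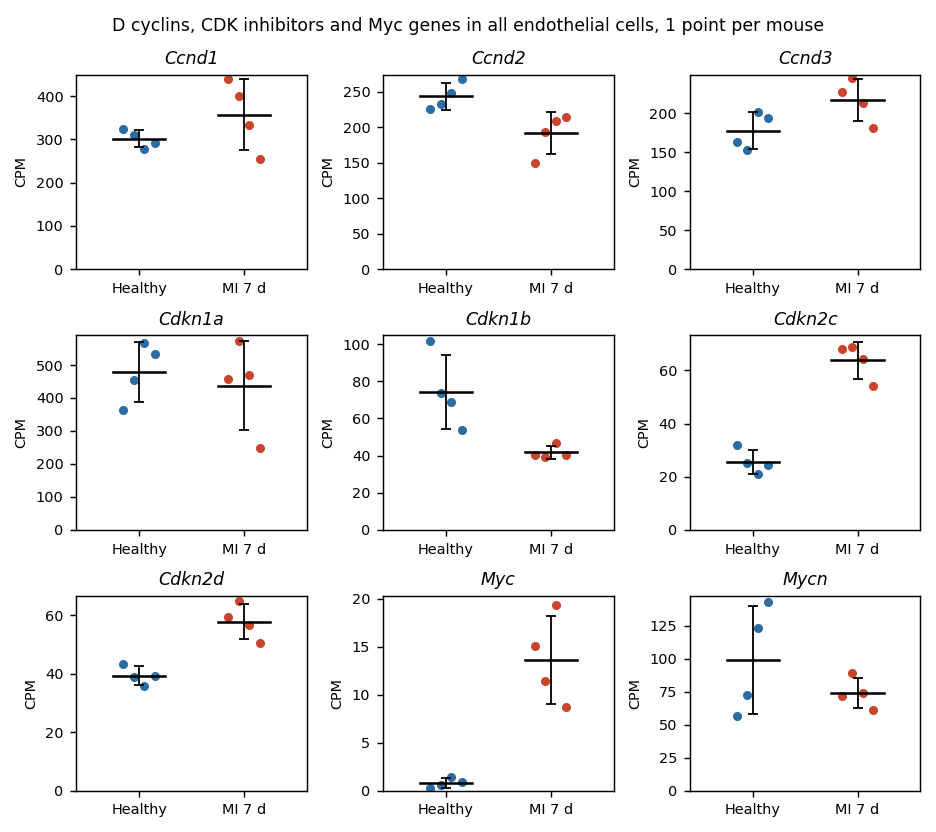
Level of each of the 9 genes in the endothelial cells of each mouse, in CPM (vertical axis, from 0), with 1 point per mouse, a bar at the group mean and whiskers of 1 SD for 4 healthy and 4 MI mice. The groups do not overlap for Ccnd2, Cdkn1b, Cdkn2c, Cdkn2d and Myc, and Myc reaches 19.3 CPM in MI 255 against at most 1.45 CPM in a healthy mouse.

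Without the copied cells of Healthy 228 and 227 the log2 differences were -0.38 for Ccnd2, -0.98 for Cdkn1b, 1.24 for Cdkn2c and 0.50 for Cdkn2d, each called, and Myc was called as well (adjusted p = 0.000245). Without the copied cells in every library they were -1.04 for Cdkn1b, 1.43 for Cdkn2c, 0.58 for Cdkn2d and 4.49 for Myc, which remained called. In cells thinned to 1000 UMIs these 4 genes also remained called, with Cdkn1b at -0.79, Cdkn2c at 1.39, Cdkn2d at 0.42 and Myc at 3.15.

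Cells with at least 1 UMI of Mki67 or Top2a, both made in dividing cells, were next separated from the rest. They were 53 to 69 cells per healthy mouse (1.83 ± 0.28% of endothelial cells) and 265 to 811 cells per MI mouse (13.8 ± 4.88%). When each cell was thinned to 1000 UMIs, with 1615 healthy and 0 MI cells too shallow to enter, the shares were 1.29 ± 0.24% and 6.23 ± 1.76%. Marked cells held more UMIs, with medians averaging 3853 against 1853 UMIs in healthy and 6669 against 3926 UMIs in MI mice.

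Within MI mice, cells marked by Mki67 or Top2a had more Cdkn2c, Cdkn2d, Cdkn1b and Ccnd3 and less Ccnd2 than the unmarked cells of the same mouse. These were 4 genes higher and 1 lower, beside 21.4% and 21.0% of the 12062 genes tested, with a median log2 difference of 0.10 for the 9 genes and -0.03 for all. Within healthy mice, Cdkn2c, Cdkn2d, Cdkn1b, Myc and Mycn were higher and Ccnd2 lower, 5 and 1 genes beside 12.2% and 14.1%, with medians of 0.43 and -0.13.

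Cdkn2c stood out most in the marked cells, at 291, 212, 256 and 345 CPM in the healthy and 184, 251, 208.5 and 261 CPM in the MI mice. In unmarked cells it was at 21.1, 17.1, 13.6 and 11.6 CPM in healthy and 23.0, 24.3, 24.2 and 22.4 CPM in MI mice. Every mouse was far higher in marked cells, with log2 differences of 4.04 ± 0.17 in healthy (adjusted p = 1.08e-18) and 3.26 ± 0.08 in MI mice (adjusted p = 3.65e-26). Cdkn2d was at 204, 170.1, 201 and 331 CPM in marked cells of healthy and 138, 204.5, 147 and 181 CPM of MI mice, against 32.1 ± 3.98 and 30.4 ± 1.28 CPM in unmarked cells. Its log2 differences were 2.74 ± 0.18 (adjusted p = 4.72e-14) and 2.47 ± 0.08 (adjusted p = 3.36e-22).

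Ccnd2 moved the other way, at 90.4, 86.8, 109 and 90.6 CPM in marked cells of healthy and 94.0, 101, 113 and 102 CPM of MI mice. Unmarked cells held 249.3 ± 19.6 and 214 ± 29.5 CPM, and no mouse overlapped between both kinds of cell. The log2 differences were -1.51 ± 0.13 in healthy (adjusted p = 2.00e-11) and -1.02 ± 0.06 in MI mice (adjusted p = 2.33e-16). In healthy mice Ccnd1 (0.01), Ccnd3 (0.11) and Cdkn1a (-0.07) did not pass the test (adjusted p = 0.450 to 0.980), although Ccnd1 was called with the marker UMIs counted in thinned cells (-0.38, adjusted p = 0.00842). In Ccnd3 the MI difference was small (0.15 ± 0.05, adjusted p = 0.0107), and it was lost without MI 244 (adjusted p = 0.0617), MI 250 (0.0528) or MI 255 (0.0791), and in DESeq2 (0.0733). It was also lost in thinned cells (0.12, adjusted p = 0.305), with the marker UMIs counted in thinned cells (0.13, adjusted p = 0.0989) and with no filter on low counts (0.12, adjusted p = 0.0614). Ccnd1 did not pass the test in MI mice (-0.08, adjusted p = 0.161), with 337 ± 92.4 CPM in marked and 361 ± 80.8 CPM in unmarked cells. It was called without Healthy 240, which enters the same fit (-0.12, adjusted p = 0.0277), with a lower limit for other cell types (-0.12, adjusted p = 0.0356), with at least 2 marker UMIs (-0.16, adjusted p = 0.0287) and with the marker UMIs counted in thinned cells (-0.30, adjusted p = 0.000108).

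Cdkn1b was at 51.4, 49.8, 55.6 and 59.2 CPM in marked and 36.0, 36.3, 44.6 and 37.7 CPM in unmarked cells of MI mice. Each MI mouse had more in its marked cells (0.49 ± 0.08, adjusted p = 4.69e-06). In healthy mice the marked cells ranged from 59.2 to 208 CPM, and the difference of 0.47 ± 0.16 (adjusted p = 0.0330) was lost without Healthy 227 (0.14, adjusted p = 0.669) or Healthy 239 (0.49, adjusted p = 0.0751). It was also lost without the copied cells of Healthy 228 and 227 (0.41, adjusted p = 0.0955), with at least 2 marker UMIs (0.45, adjusted p = 0.0539) and in thinned cells (0.06, adjusted p = 0.937). Cdkn1a was at 414 ± 88.8 CPM in marked and 446 ± 147 CPM in unmarked cells of MI mice (-0.06, adjusted p = 0.443), and the difference passed the test without MI 256 (-0.20, adjusted p = 0.00279). It also passed in thinned cells (-0.16, adjusted p = 0.0482) and, with the other sign, with the marker UMIs counted in thinned cells (0.19, adjusted p = 0.0470).

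Myc was at 15.2, 9.48, 22.5 and 8.99 CPM in marked and 14.99, 11.9, 18.4 and 8.62 CPM in unmarked cells of MI mice, a log2 difference of 0.06 ± 0.12 (adjusted p = 0.712). Marked and unmarked cells were thus close in each mouse, and each mouse kept its own level. The healthy marked cells held 0, 2, 4 and 2 UMIs of Myc, 8 in 233 cells, and the log2 difference there (3.62 ± 0.77, adjusted p = 0.000407) rests on these; without the copied cells in every library, which left 2 healthy mice in the fit, it was not called (2.74, adjusted p = 0.231), nor with no cell set aside (1.65, adjusted p = 0.0746). Mycn was at 78.6 ± 9.19 CPM in marked and 73.2 ± 12.2 CPM in unmarked MI cells (0.10 ± 0.06, adjusted p = 0.185), and the difference was called with the marker UMIs counted in thinned cells (0.22, adjusted p = 0.0200). In healthy mice it was higher in marked cells (0.43 ± 0.13, adjusted p = 0.0127), a call lost without Healthy 240 (0.41, adjusted p = 0.0874), in thinned cells (0.28, adjusted p = 0.583) and with the marker UMIs counted in thinned cells (0.26, adjusted p = 0.228).

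The difference between marked and unmarked cells was itself compared between MI and healthy mice. It was higher for Ccnd2 (0.49 ± 0.15, adjusted p = 0.0397) and lower for Cdkn2c (-0.78 ± 0.17, adjusted p = 0.00317) and Myc (-3.56 ± 0.77, adjusted p = 0.00248), 1 and 2 genes where 3.9% and 3.35% of genes were called. The other 6 genes lay between -0.33 and 0.04 and did not pass the test (adjusted p = 0.1855 to 0.993). The Ccnd2 call was lost without any 1 of the 4 healthy mice or MI 244 (0.36 to 0.52, adjusted p = 0.0633 to 0.273), that of Cdkn2c without Healthy 240 (-0.58, adjusted p = 0.0516) and that of Myc without Healthy 239 (-3.28, adjusted p = 0.0944). Without the copied cells in every library, with Healthy 227 and 240 as the healthy mice left, it was not called for Ccnd2 (0.50, adjusted p = 0.287) or Myc (-2.69, adjusted p = 0.443), and without those of Healthy 228 and 227 not for Ccnd2 (0.44, adjusted p = 0.112). In thinned cells none of the 3 was called, with Ccnd2 at 0.16 (adjusted p = 0.863), Cdkn2c at -0.08 (adjusted p = 0.942) and Myc at -3.19 (adjusted p = 0.175). With no cell set aside Ccnd2 (0.51, adjusted p = 0.0765) and Myc (-1.51, adjusted p = 0.213) were not called, nor was Ccnd2 in DESeq2 (0.39, adjusted p = 0.252) or with a lower limit for other cell types (0.42, adjusted p = 0.112).

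The levels of both INK4 genes were ordered by the number of marker UMIs. In MI mice Cdkn2c averaged 23.5 CPM in cells with 0 UMIs of Mki67 and Top2a, 37.1 with 1, 75.2 with 2 and 365 with 3 or more. Cdkn2d averaged 30.4, 33.9, 67.2 and 265 CPM, and Ccnd2 had the opposite order, with 214, 163, 114 and 64.8 CPM. These steps describe level against marker count in cells of unequal depth and were not tested. In healthy mice the cells with 3 or more UMIs were at 407 ± 51.9 CPM of Cdkn2c, 325 ± 74.1 CPM of Cdkn2d and 48.1 ± 18.4 CPM of Ccnd2. With the marker UMIs counted in cells thinned to 1000 UMIs, the log2 difference of marked against unmarked MI cells was 3.33 for Cdkn2c, 2.87 for Cdkn2d and 0.22 for Mycn.

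**Figure D2:**
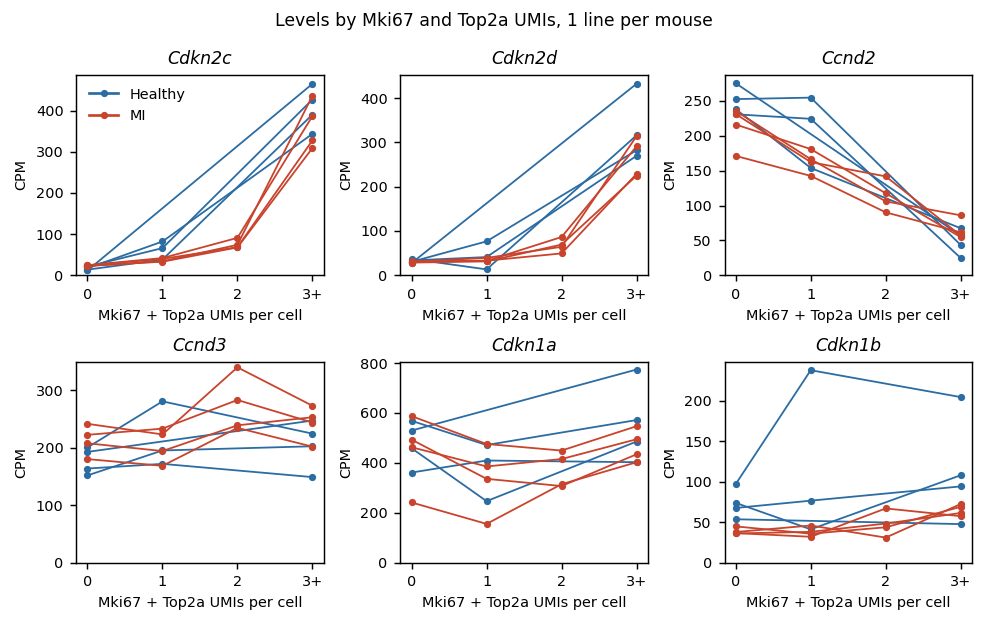
Level of 6 genes (CPM, vertical axes from 0) in endothelial cells with 0, 1, 2 or 3 or more UMIs of Mki67 and Top2a (horizontal axis), with 1 line per mouse and a point where it has at least 20 such cells, so that healthy mice have none at 2 UMIs. On average Cdkn2c goes from 23.5 to 365 CPM and Ccnd2 from 214 to 64.8 CPM over these steps in MI mice.

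Marked MI cells were also split by UMIs of S-phase genes, a list of 14 genes of DNA replication, with at least 2 such UMIs per 1000 in the first group. Cdkn1a averaged 514 ± 77.0 CPM in marked cells with S-phase genes and 351 ± 94.6 CPM in marked cells with few, Ccnd3 292 ± 39.5 and 195 ± 22.8 CPM, and Ccnd1 394 ± 103 and 299 ± 81.1 CPM. The order was opposite for Ccnd2 (73.7 ± 15.2 and 121 ± 8.83 CPM) and Cdkn1b (42.0 ± 5.99 and 61.5 ± 5.60 CPM). Cdkn2c was high in both kinds of marked cell (281 ± 66.2 and 159 to 213 CPM, mean 192), but at 22.8 ± 7.91 CPM in cells with S-phase genes and no Mki67 or Top2a UMI, which is close to the 23.7 ± 0.95 CPM of cells with neither. Cells with neither had 0 UMIs of both kinds of gene, so unmarked cells with 1 S-phase UMI are in neither of these groups, whereas marked cells with few had 0 or 1. Ccnd1 was at 483 ± 88.2 CPM in these S-phase cells without marker UMIs and at 342 ± 73.2 CPM in cells with neither. These are values of 4 MI mice each, given without a test.

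MI and healthy mice were then compared within unmarked and within marked cells. In unmarked cells Myc and Cdkn2c were higher and Cdkn1b lower post-MI, 2 and 1 of 9 genes beside 18.2% and 17.2% of the 12030 genes tested, with medians of -0.14 for the 9 and -0.01 for all. Myc was at 0.327, 0.297, 0.9498 and 0.693 CPM in healthy and at the MI levels above in post-MI unmarked cells, a 23.8-fold ratio of means with no overlap (log2 difference 4.44 ± 0.36, adjusted p = 0.000126). The healthy side of this ratio is 16 UMIs in 12604 cells, and the log2 difference was 3.44 in thinned cells and 2.64 with no cell set aside (adjusted p = 0.000532 and 0.00179). Cdkn1b fell in unmarked cells by a log2 difference of -0.98 ± 0.16 (adjusted p = 0.00151), from 72.9 ± 18.2 to 38.7 ± 4.06 CPM. Cdkn2c was 0.50 ± 0.16 higher (adjusted p = 0.0312), a smaller log2 difference than in all cells. Over the alternatives it lay between 0.38 and 0.98, against 1.15 to 1.43 in all cells. Its call was lost without Healthy 239, Healthy 240, MI 244, MI 250 or MI 255 (0.38 to 0.52, adjusted p = 0.0609 to 0.0847). With no cell set aside it was lost too (0.45, adjusted p = 0.0675). Cdkn2d, higher in all cells, was at 32.1 ± 3.98 CPM in healthy and 30.4 ± 1.28 CPM in MI unmarked cells (-0.14 ± 0.10, adjusted p = 0.273).

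Other genes of unmarked cells did not pass the test. Ccnd2 had a log2 difference of -0.29 ± 0.11 (adjusted p = 0.0596) and was called without Healthy 227 (-0.34, adjusted p = 0.0498) or MI 256 (-0.34, adjusted p = 0.0418), in DESeq2 (-0.29, adjusted p = 0.0395), with no cell set aside (-0.41, adjusted p = 0.0197) and with the marker UMIs counted in thinned cells (-0.37, adjusted p = 0.0289). Without MI 256 Ccnd1 was also called (0.32, adjusted p = 0.0404), and without Healthy 227 Mycn (-0.68, adjusted p = 0.0294), against 0.19 and -0.48 in all mice. Ccnd3 (0.20) and Cdkn1a (-0.18) had adjusted p = 0.1915 and 0.574.

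In marked cells 0 genes were higher and 2 were lower post-MI, beside 2.81% and 3.3% of the 8598 genes tested, with medians of -0.28 and -0.00. Cdkn1b was at 208, 69.4, 105 and 59.2 CPM in the marked cells of healthy mice, all at or above the 49.8 to 59.2 CPM of MI mice, and Healthy 227 stood highest. Its log2 difference of -1.06 ± 0.27 (adjusted p = 0.0365) was not called without any of Healthy 227, 228 and 239 or MI 244, 250 and 255 (-1.21 to -0.55, adjusted p = 0.0535 to 0.154), nor without the copied cells in every library and so without Healthy 228 and 239 (-1.24, adjusted p = 0.114), in thinned cells (-0.71, adjusted p = 0.464), with at least 2 marker UMIs (-0.88, adjusted p = 0.0773) or with these counted in thinned cells (-0.94, adjusted p = 0.0771). Mycn was at 90.4, 79.8, 180.4 and 212 CPM in healthy and 71.4 to 92.0 CPM in MI mice. Its difference of -0.88 ± 0.24 (adjusted p = 0.0431) was lost without Healthy 239 or 240 or MI 244, 255 or 256 (-0.87 to -0.59, adjusted p = 0.0554 to 0.190) and without the copied cells of Healthy 228 and 227 (-0.86, adjusted p = 0.0848) or of every library, again with 2 healthy mice left (-0.995, adjusted p = 0.102), and also in thinned cells (-0.63, adjusted p = 0.256) or with the marker UMIs counted in thinned cells (-0.70, adjusted p = 0.0875). Cdkn2c (-0.33 ± 0.16, adjusted p = 0.238) and Cdkn2d (-0.48 ± 0.19, adjusted p = 0.154) did not pass the test. Nor did Ccnd1 (0.02), Ccnd2 (0.09), Ccnd3 (0.15), Cdkn1a (-0.28) and Myc (0.92), with adjusted p = 0.392 to 0.972.

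**Figure D3:**
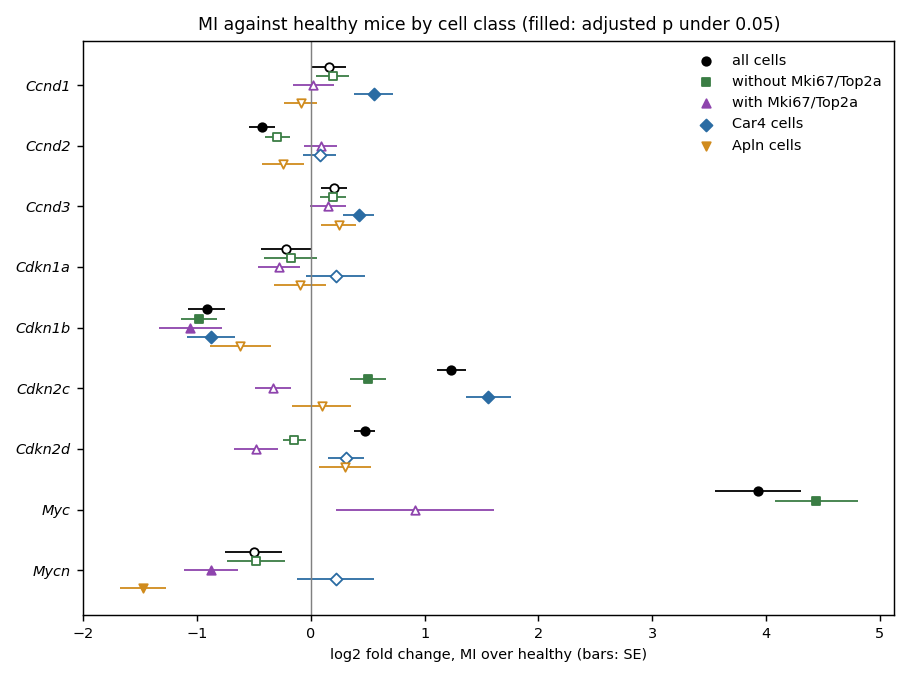
Log2 difference of MI against healthy mice with its standard error (horizontal axis) for each gene, fitted over all endothelial cells, over cells without and with a UMI of Mki67 or Top2a, and over Car4 and Apln cells, with filled points for adjusted p under 0.05. Myc lies at 3.93 in all cells and 4.44 in unmarked cells, Cdkn2c at 1.24 and 0.50, and Cdkn1b lies below 0 in each. Mki67 and Top2a UMIs were counted at full depth, which differed between the groups.

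Endothelial classes were formed from marker UMIs in cells thinned to 1000 UMIs. Car4 marks resting capillary cells, Apln (apelin) sprouting cells, and Plvap, the protein of fenestral and caveolar diaphragms, marks a population of post-MI vessels. Car4 cells numbered 2420 in healthy and 1453 in MI mice, Apln cells 354 and 1229, and Plvap-high cells (at least 2 UMIs of Plvap) 11 and 1054. The 2 to 3 Plvap-high cells per healthy mouse were too few to compare. Classes exclude each other. Of the 28819 cells, 20421 (70.9%) had too few UMIs of these markers for any class, 262 had those of more than 1 class, and 1615 healthy cells were under 1000 UMIs and could not be placed. Cells with Mki67 or Top2a made up 0.833 ± 0.41% of healthy and 7.73 ± 3.23% of MI Car4 cells, 7.57 ± 2.83% and 19.0 ± 4.90% of Apln cells and 13.3 ± 4.01% of MI Plvap-high cells.

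In MI mice the Plvap-high cells had more Myc and less of the D-type cyclins, Cdkn1a and Mycn than the Car4 cells of the same mouse, 1 gene higher and 5 lower beside 15.5% and 14.7% of the 9832 genes tested. The median log2 difference was -0.73 for the 9 genes and 0.00 for all. Against Apln cells 1 gene was higher and 7 lower, beside 14.1% in either direction, with medians of -0.58 and 0.00. Both comparisons share the Plvap-high cells.

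Myc was at 36.9, 39.8, 38.4 and 30.8 CPM in Plvap-high cells of MI mice (85, 49, 145 and 22 UMIs). It was at 8.82, 9.87, 24.4 and 9.22 CPM in their Apln cells and at 6.18, 5.66, 3.33 and 4.995 CPM in their Car4 cells. The order Plvap-high, Apln, Car4 held in every MI mouse, and MI cells in no class were at 11.6 ± 3.13 CPM. In thinned cells Myc had too few counts to be tested between classes, so these differences have no fit at equal depth. Plvap-high cells were 2.68 ± 0.29 above Car4 (adjusted p = 1.86e-07) and 1.51 ± 0.22 above Apln cells (adjusted p = 1.32e-05) on the log2 scale. Apln cells were 1.17 ± 0.34 above Car4 cells (adjusted p = 0.0201), a call lost without MI 255 (0.68, adjusted p = 0.152) or MI 250 (1.29, adjusted p = 0.0605). Haematopoietic markers summed to 330 to 516 CPM in Plvap-high cells, 275 to 472 CPM in Apln cells and 292 to 484 CPM in Car4 cells, ranges that overlap, and 2, 2 and 3 of the 20 were at 0 in every mouse. Fibroblast markers (8 genes, 1 of them at 0 in each class) summed to 36.9 to 65.7 CPM in Plvap-high cells, above the 11.03 to 15.7 CPM of Apln and the 6.65 to 22.8 CPM of Car4 cells. Markers of pericytes or smooth muscle (9 genes, none at 0) summed to 48.9 to 268, 53.2 to 227 and 51.4 to 122 CPM in the 3 classes and lymphatic markers (7 genes) to 42.9 to 158, 43.0 to 54.4 and 34.8 to 66.4 CPM, with overlap. Their part in the Myc result was not tested.

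Mycn was lowest in the Plvap-high cells. It was at 16.5, 7.32, 15.1 and 12.6 CPM in Plvap-high cells, at 87.3, 101, 123 and 43.5 CPM in Car4 cells and at 93.4, 125, 116 and 83.9 CPM in Apln cells of MI mice. Every mouse was lowest in Plvap-high cells, by -2.70 ± 0.19 against Car4 (adjusted p = 3.88e-10) and -2.95 ± 0.18 against Apln cells (adjusted p = 4.33e-11). The difference of Apln from Car4 cells within mice did not pass the test (0.25, adjusted p = 0.228).

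All 3 D-type cyclins were lowest in the Plvap-high cells. Ccnd2 was at 72.8, 82.1, 81.6 and 109 CPM there, at 160 ± 37.2 CPM in Apln and 214 ± 41.7 CPM in Car4 cells, a difference from Car4 cells of -1.36 ± 0.12 (adjusted p = 1.17e-08). Ccnd1 was at 286, 217, 215 and 197 CPM in Plvap-high, 386 ± 111 CPM in Car4 and 542 ± 112 CPM in Apln cells. Its 3 levels were separated by each test, -0.74 ± 0.09 for Plvap-high against Car4 (adjusted p = 1.61e-06) and 0.49 ± 0.09 for Apln against Car4 (adjusted p = 0.000320). Ccnd3 was at 150 ± 17.0 CPM in Plvap-high, 222 ± 36.1 CPM in Apln and 246 ± 42.1 CPM in Car4 cells (-0.73 ± 0.09 against Car4, adjusted p = 2.37e-06). Against Apln cells the differences were -1.23 ± 0.09 for Ccnd1 (adjusted p = 7.95e-10), -0.94 ± 0.12 for Ccnd2 (adjusted p = 2.56e-06) and -0.58 ± 0.09 for Ccnd3 (adjusted p = 4.31e-05). For Ccnd2 the step from Car4 to Apln cells (-0.42 ± 0.11, adjusted p = 0.0102) was lost without MI 250 (-0.35, adjusted p = 0.108), when cells with Mki67 or Top2a were left out of the classes (-0.28, adjusted p = 0.0798) and in thinned cells (-0.42, adjusted p = 0.0838).

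Cdkn1a was at 205, 346, 195 and 156 CPM in Plvap-high cells against 485, 604, 798 and 229 CPM in Car4 and 460, 532, 485 and 196 CPM in Apln cells. Each mouse was lower in its Plvap-high cells, by -1.21 ± 0.14 against Car4 (adjusted p = 6.51e-07) and -0.91 ± 0.14 against Apln cells (adjusted p = 3.49e-05), although MI 256 was low in all classes. Cdkn1b was at 35.2 ± 8.94, 38.4 ± 8.50 and 43.6 ± 6.50 CPM in Plvap-high, Apln and Car4 cells, and neither difference from Plvap-high cells passed the test (-0.23, adjusted p = 0.314, and -0.02, adjusted p = 0.939).

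Among the 3 classes the INK4 genes were highest in Apln cells, where 19.0% of cells carried Mki67 or Top2a. MI cells in no class held about as much, 68.0 ± 8.18 CPM of Cdkn2c and 61.7 ± 7.09 CPM of Cdkn2d, given without a test. Cdkn2c was at 68.2 ± 9.40 CPM in Apln, 45.6 ± 14.9 CPM in Plvap-high and 42.4 ± 5.75 CPM in Car4 cells, and Cdkn2d at 58.6 ± 7.72, 41.8 ± 4.26 and 42.2 ± 6.62 CPM. Apln cells were above Car4 cells by 0.71 ± 0.16 for Cdkn2c (adjusted p = 0.00362) and 0.43 ± 0.12 for Cdkn2d (adjusted p = 0.0125). When cells with Mki67 or Top2a were left out of the classes these became -0.24 for Cdkn2c (adjusted p = 0.550) and -0.49 for Cdkn2d (adjusted p = 0.0788). Plvap-high cells, lower than Apln cells in Cdkn2c (-0.54, adjusted p = 0.00834) and Cdkn2d (-0.43, adjusted p = 0.00471), were then higher (0.56, adjusted p = 0.0378, and 0.64, adjusted p = 0.00633). In Cdkn2d the Apln difference from Car4 cells was also lost without MI 250 (0.44, adjusted p = 0.0747) or MI 256 (0.38, adjusted p = 0.0760) and that from Plvap-high cells without MI 250 (-0.37, adjusted p = 0.0555), and for Cdkn2c the latter without MI 244 (-0.28, adjusted p = 0.229). In thinned cells no INK4 difference of Apln cells was called, from Car4 (0.69, adjusted p = 0.106 for Cdkn2c, and 0.42, adjusted p = 0.414 for Cdkn2d) or from Plvap-high cells (-0.29, adjusted p = 0.591, and -0.30, adjusted p = 0.617), and from 3 UMIs of Plvap the latter were -0.40 (adjusted p = 0.0663) and -0.28 (adjusted p = 0.109). Neither Cdkn2d difference was called in DESeq2 (adjusted p = 0.110 and 0.0595). Between Apln and Car4 cells, 4 of the 9 genes were higher and 1 lower, beside 8.84% and 7.93% of genes, with medians of 0.25 and -0.00. Ccnd3 (-0.15, adjusted p = 0.270), Cdkn1a (-0.31, adjusted p = 0.126) and Cdkn1b (-0.21, adjusted p = 0.421) did not pass this test, though Cdkn1a did with no filter on low counts (-0.30, adjusted p = 0.00116). Plvap-high and Car4 cells differed by 0.17 in Cdkn2c (adjusted p = 0.528) and by -0.00 in Cdkn2d (adjusted p = 0.999).

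**Figure D4:**
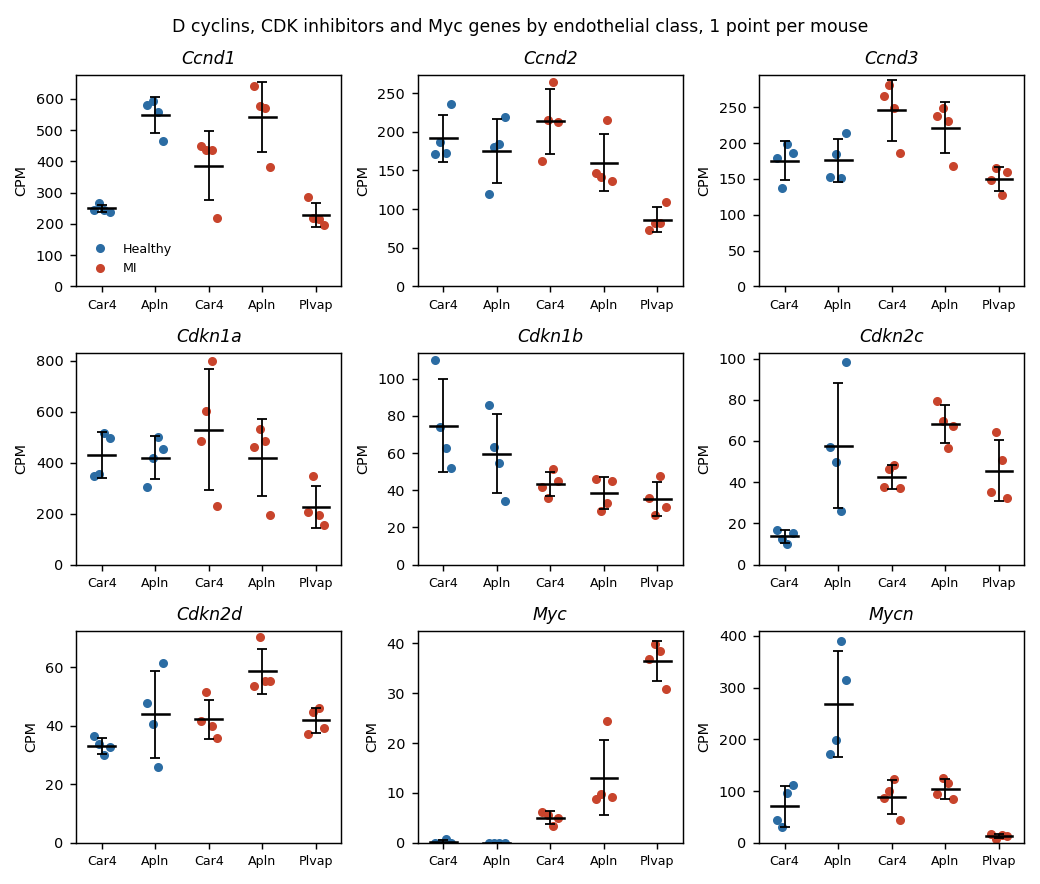
Level of each gene (CPM, vertical axis from 0) in Car4 and Apln cells of healthy mice and in Car4, Apln and Plvap-high cells of MI mice, with 1 point per mouse, a bar at the mean and whiskers of 1 SD. Myc reaches 30.8 to 39.8 CPM in Plvap-high cells, Mycn is highest in healthy Apln cells (171 to 390.4 CPM) and lowest in Plvap-high cells (7.32 to 16.5 CPM).

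Levels were also set out by the number of Plvap UMIs per 1000 in MI cells. These UMIs define the Plvap-high cells, which all lie in the steps with 2 and with 3 or more. The steps are therefore not separate from the contrast above. Myc averaged 9.77 ± 3.17 CPM in cells with 0 Plvap UMIs, 25.5 ± 2.17 with 1, 32.9 ± 7.96 with 2 and 35.5 ± 4.23 with 3 or more. Mycn averaged 86.1 ± 15.4, 41.7 ± 4.18, 22.5 ± 5.14 and 9.40 ± 4.65 CPM along these steps. Ccnd2 went from 209.9 ± 37.5 to 70.8 ± 19.2 CPM, Cdkn1a from 478 ± 154 to 203 ± 60.4 CPM and Ccnd3 from 230.1 ± 30.9 to 146 ± 21.6 CPM. Ccnd1 was at 384 ± 89.8 CPM with 0 UMIs and at 256 ± 64.7, 243 ± 49.0 and 238 ± 50.8 CPM with more. These steps are a description over 4 mice and were not tested.

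**Figure D5:**
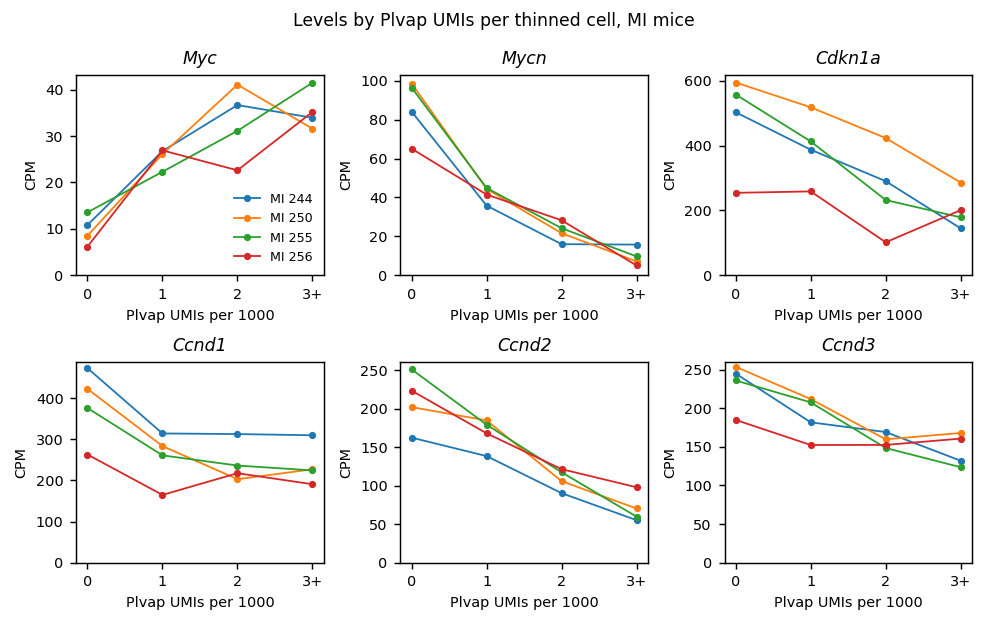
Level of 6 genes (CPM, vertical axes from 0) in endothelial cells of the 4 MI mice with 0, 1, 2 or 3 or more UMIs of Plvap after thinning to 1000 UMIs per cell (horizontal axis), with 1 line per mouse. On average Myc goes from 9.77 to 35.5 CPM and Mycn from 86.1 to 9.40 CPM.

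In healthy mice the Apln cells had more Ccnd1, Cdkn2c and Mycn than Car4 cells. These were 3 genes higher and 0 lower of the 8 tested, beside 11.5% and 9.04% of the 7596 genes tested, with medians of 0.24 and -0.01. Mycn was at 171, 199, 390.4 and 315 CPM in the healthy Apln cells and at 44.1, 29.7, 96.1 and 112 CPM in the Car4 cells. Each mouse was higher in Apln cells (1.94 ± 0.15, adjusted p = 1.15e-11), and Healthy 239 and 240 were higher than Healthy 227 and 228 in both classes. Ccnd1 was at 581, 591, 558 and 465 CPM in Apln and 246, 267, 246 and 239 CPM in Car4 cells, without overlap (1.14 ± 0.09, adjusted p = 6.89e-11). Cdkn2c was at 57.1, 49.7, 25.8 and 98.4 CPM in Apln and 17.0, 12.4, 9.96 and 15.2 CPM in Car4 cells (2.12 ± 0.27, adjusted p = 4.18e-07). These are 12, 11, 8 and 40 UMIs in Apln and 22, 15, 14 and 21 UMIs in Car4 cells. At full depth 3.92, 11.2, 3.92 and 10.7% of Apln cells had a UMI, against 3.91, 3.02, 1.81 and 1.71% of Car4 cells, and in thinned cells 0, 2.5, 0 and 6.61% against 1.78, 1.81, 0.837 and 1.09%, so few cells carry the level and the thinned order is reversed in Healthy 227 and 239. Thinned cells and classes without Mki67 or Top2a cells had too few counts of Cdkn2c to be tested. Without the copied cells in every library, with 3 healthy mice left, Mycn (1.61, adjusted p = 9.13e-06) and Ccnd1 (1.14, adjusted p = 2.89e-05) remained called, and Cdkn2c had too few counts here too. Ccnd2 (-0.10), Ccnd3 (0.02), Cdkn1a (-0.02), Cdkn1b (-0.33) and Cdkn2d (0.46) did not pass the test (adjusted p = 0.197 to 0.937), but Cdkn1b was called without Mki67 or Top2a cells in the classes (-0.71, adjusted p = 0.0193).

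Myc was not detected in healthy Apln cells (0 UMIs in 354 cells) and had 1 UMI in 2420 healthy Car4 cells, and it did not pass the filter on low counts between the groups within classes. With no filter it was called in Car4 cells (4.22, adjusted p = 0.000596) and in Apln cells (adjusted p = 0.000150). In Apln cells it also passed the filter without 1 of the 4 healthy mice or without copied cells in every library (3 healthy mice left), and was not called there (adjusted p = 0.0632 to 0.149). Over the healthy Apln cells 3 UMIs, the floor for a count of 0, would be 2.61 CPM, and the MI Apln cells (13.1 ± 7.55 CPM) were at least 4.94-fold higher. In Car4 cells the ratio of the pooled levels was 28.4-fold, with a 95% exact interval of 4.74 to 1159 from counting error alone. These intervals and floors cover counting error only.

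Within Apln cells 0 genes were higher and 1 lower post-MI of the 8 tested, beside 2.8% and 3.79% of the 7487 genes tested, with medians of -0.09 and -0.01. This gene was Mycn, whose MI level above was 0.389 times the healthy 269 ± 102 CPM, without overlap (-1.48 ± 0.20, adjusted p = 0.000514). It was also called without the copied cells in every library and without Healthy 228 (-1.27, adjusted p = 0.00784). The other 7 genes lay between -0.62 (Cdkn1b) and 0.30 (Cdkn2d) and did not pass the test (adjusted p = 0.183 to 0.884). Mycn in Car4 cells was at 70.4 ± 39.6 CPM in healthy and 88.7 ± 33.5 CPM in MI mice, which overlapped (0.22, adjusted p = 0.706).

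Within Car4 cells 3 genes were higher and 1 lower of the 8 tested, beside 7.91% and 8.53% of the 8860 genes tested, with medians of 0.27 and -0.01. Cdkn2c was at 37.9, 46.5, 48.2 and 37.1 CPM in MI Car4 cells, each above all healthy mice (1.56 ± 0.20, adjusted p = 0.000250), and remained higher without cells marked by Mki67 or Top2a (1.10, adjusted p = 0.0138). Cdkn1b was lower (-0.88 ± 0.21, adjusted p = 0.0128), from 74.7 ± 25.1 to 43.6 ± 6.50 CPM, a call lost without MI 250 (-0.77, adjusted p = 0.0632) and in thinned cells (-0.84, adjusted p = 0.0977). Ccnd1 (0.55 ± 0.17, adjusted p = 0.0424) was not called without any 1 of 7 mice, MI 256 being the exception (0.48 to 0.60, adjusted p = 0.0589 to 0.132). Ccnd3 (0.42 ± 0.13, adjusted p = 0.0457) was not called without Healthy 227, 228 or 240 or MI 244, 250 or 255 (0.33 to 0.44, adjusted p = 0.0670 to 0.161), nor without the copied cells of Healthy 228 and 227 (0.45, adjusted p = 0.0538), in thinned cells (0.46, adjusted p = 0.0658), in DESeq2 (0.43, adjusted p = 0.0551) or with no cell set aside (0.42, adjusted p = 0.0520). With no cell set aside Ccnd1 was not called either (0.55, adjusted p = 0.0518). Ccnd2 (0.08), Cdkn1a (0.22) and Cdkn2d (0.31) did not pass the test (adjusted p = 0.192 to 0.764).

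The difference of Apln from Car4 cells was compared between MI and healthy mice in a test chosen after the data had been seen. It was smaller post-MI for Mycn (-1.65 ± 0.19, adjusted p = 3.55e-07), Cdkn2c (-1.40 ± 0.29, adjusted p = 0.00249) and Ccnd1 (-0.62 ± 0.11, adjusted p = 0.000279). These were 0 genes higher and 3 lower, beside 0.7% and 2.38% of the 9566 genes tested, with medians of -0.26 and 0.00. Ccnd2 (-0.31), Ccnd3 (-0.16), Cdkn1a (-0.26), Cdkn1b (0.19) and Cdkn2d (0.02) did not pass the test, with the lowest adjusted p at 0.357, and the value of Myc has a standard error of 29.2, since healthy Apln cells held none. For Mycn it was -1.29 (adjusted p = 0.000147) and for Ccnd1 -0.57 (adjusted p = 0.0292) without the copied cells in every library, with 3 healthy mice left. The Cdkn2c call was lost without Healthy 240 (-0.98, adjusted p = 0.168), in thinned cells (-0.41, adjusted p = 0.924) and when cells with Mki67 or Top2a were left out of the classes (-0.31, adjusted p = 0.924). In thinned cells Ccnd1 was at -0.63 (adjusted p = 0.0384) and Mycn at -1.81 (adjusted p = 3.60e-07).

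Shares of cells with a UMI were given at equal depth. In cells thinned to 1000 UMIs, Myc had a UMI in 0.113 ± 0.05% of healthy and 1.07 ± 0.45% of MI cells, against 0.173% and 5.46% at full depth. Among thinned MI cells its share was 2.99 ± 1.37% in Plvap-high, 1.12% (0.311 to 3.21%) in Apln and 0.628 ± 0.33% in Car4 cells. Mycn had a UMI in 21.3 ± 4.39% of thinned healthy Apln cells, 8.95 ± 1.79% of MI Apln cells and 1.63 ± 1.57% of MI Plvap-high cells. Mean shares were higher post-MI for 5 of the 9 genes in thinned cells and for 9 of 9 at full depth. Neither erythroid cells nor platelets gave a clean background for these shares, and the other cell types set aside were not looked at in this way. The 131 erythroid cells set aside (median 6635 UMIs) held Myc in 1 cell (0.763%) at full depth, under the 2.29% that 3 cells make, and in 0 of 128 cells after thinning, which allows a share of up to 2.34%. They held Mycn in 17.6% at full depth and 3.12% thinned and Ccnd1 in 51.1% and 14.8%, so they also carried RNA found in endothelial cells. The 37 platelets (median 1535 UMIs) held Myc and Mycn in 0 cells, which allows a share of up to 8.11%, but Ccnd3 in 67.6% and Cdkn2d in 64.9% of cells. It was therefore not tested how much of the low shares, such as Myc in healthy cells and Mycn in Plvap-high cells, comes from free RNA.

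In the cells set aside, which were summed where a mouse had at least 20 of a type, Ccnd2 was at 755 ± 95.3 CPM in healthy (n = 3) and 667 ± 97.3 CPM in MI (n = 4) pericytes or smooth muscle. Mycn was at 7.58 ± 4.92 and 11.7 ± 6.46 CPM in these cells and at 14.0 ± 5.96 and 8.24 ± 5.12 CPM in haematopoietic cells. Myc was at 8.46 ± 9.79 CPM in healthy and 27.3 ± 9.51 CPM in MI pericytes or smooth muscle.

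Other genes of the same pathways were counted from lists made up with earlier results of these data known. Of 20 tested genes that act with the D-type cyclins between G1 and S phase, 9 were higher and 0 lower post-MI over all endothelial cells (median log2 difference 0.35), where 19.4% of all genes tested were called higher and 18.9% lower (median -0.02). Cks1b, a CDK subunit, went from 17.0 ± 1.93 to 73.3 ± 16.5 CPM (2.02 ± 0.17, adjusted p = 0.000100) and E2f1 from 5.67 ± 1.03 to 22.8 ± 6.84 CPM (1.93 ± 0.23, adjusted p = 0.000416). Of 14 S-phase genes, 12 were higher and 0 lower (median 0.90), with Gins2 at 2.04 and Rrm2, a subunit of ribonucleotide reductase, at 1.80. Of 3 other CDK inhibitors, Cdkn1c (p57KIP2) was lower, from 518 ± 97.5 to 170.1 ± 73.9 CPM (-1.69 ± 0.29, adjusted p = 0.00187), and Cdkn2a was higher at a low level (0.98 ± 0.32, adjusted p = 0.0337).

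Of 11 tested partners and rivals of Myc, 2 were higher and 4 lower (median -0.14), beside the same 19.4% and 18.9% of all genes. Mxd3 (1.98 ± 0.21, adjusted p = 0.000252) and Mycl (1.82 ± 0.58, adjusted p = 0.0297) were higher. Mxi1 (-0.87 ± 0.13, adjusted p = 0.000875) and Mnt (-0.70 ± 0.14, adjusted p = 0.00463) had the lowest values of those called. Of 15 known Myc targets, 6 were higher and 0 lower (median 0.28; 19.4% and 18.9% of all genes), led by Apex1 at 0.74 and Nme1 at 0.61. In Plvap-high against Car4 cells, 8 of these 15 targets were higher and 0 lower (median 0.48), beside 15.5% and 14.7% of all genes. Against Apln cells 1 was higher and 6 lower (median -0.19), beside 14.1% in either direction. In Apln against Car4 cells 10 of 15 were higher in MI mice, beside 8.84% of all genes, and 11 of 13 in healthy mice, beside 11.5%.

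Of 13 p53 targets, 4 were higher and 1 lower post-MI (median 0.33), again beside 19.4% and 18.9% of all genes, with Zmat3 at 0.94, Phlda3 at 0.79 and Sesn1 at -0.68. In Plvap-high against Car4 cells, where Cdkn1a was lower, 1 was higher and 6 lower (median -0.26), beside 15.5% and 14.7%. Of 9 genes tied to quiescence, 1 was higher and 5 lower post-MI (median -0.49; 19.4% and 18.9% of all genes), with Btg1 at 0.41, Txnip at -0.96 and Klf4 at -0.84. Immediate early and stress genes, which rise when tissue is dissociated, gave 0 higher and 2 lower of 14 (median -0.33), a lower share in each direction than over all genes, with Hspa1b at -1.23 and Jund at -0.71. The 14 summed to 6940 to 11100 CPM in healthy and 7157 to 9909 CPM in MI mice. In marked against unmarked MI cells all 14 of them were lower, 7 of 9 quiescence genes were lower and 14 of 14 S-phase genes were higher, beside 21.4% of all genes higher and 21.0% lower. Marked cells were chosen by genes of dividing cells, so the S-phase and quiescence counts are not separate from that choice.

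Genes with the pattern most like each member were found by Pearson's r of log2(CPM + 5) over 28 sums (the marked, Car4, Apln and Plvap-high cells of each mouse, where at least 20 were present) among the 6275 genes that averaged 20 CPM or more. Many of these sums share mice, and the marked cells of a class are also in the marked sum of the same mouse. The sums were also chosen by UMIs of Mki67, Top2a, Car4, Apln or Plvap, so genes that differ with these markers correlate by that choice. For these reasons r is a description without a test. Cdkn2c was most like Smc2 (0.975), Mxd3 (0.975) and Plk1 (0.973), and Cdkn2d like H2afv (0.973), Tmpo (0.970) and Dek (0.963). Myc was most like Tgfbi (0.943), Fstl1 (0.929) and Lgmn (0.927), and Mycn like Tuba1a (0.943), Creb5 (0.942) and Icam2 (0.921). The nearest genes were Rhoc for Ccnd1 (0.898), Rapgef3 for Ccnd2 (0.837), Gnb2 for Ccnd3 (0.804), Cfap20 for Cdkn1a (0.797) and Gm21092 for Cdkn1b (0.848).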

How the data were processed

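The authors deposited 1 table of raw UMI counts per gene and cell, made with Cell Ranger and mm10 and, per the labels, processed with R 3.5.2 and Seurat 2.3. The authors' sort had a gate against doublets, and no doublet caller was run on the counts. Healthy libraries totalled 6764977 to 8793655 UMIs and MI libraries 15865234 to 27244947 UMIs. A cell was set aside when at least 3 markers of another cell type took at least 0.5% of its UMIs (5% for erythroid cells). Counts were summed per mouse and class of cells, given at least 20 cells, and tested with edgeR 4.0.16 in R 4.3.3 (TMM, filterByExpr, quasi-likelihood F test, Benjamini-Hochberg adjustment over all genes tested at 0.05). Comparisons within mice had the mouse as a block. Classes and shares were taken from cells thinned at random to a depth of 1000 UMIs. Classes were Car4 (at least 1 UMI of Car4, 0 of Apln, under 2 of Plvap), Apln (at least 1 UMI of Apln, 0 of Car4, under 2 of Plvap) and Plvap-high (at least 2 UMIs of Plvap, 0 of both others).

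All 9 genes are described in every comparison that tested them, some by the range of values, and of each list the called genes with the 2 highest and 2 lowest log2 fold changes over all endothelial cells. Myc did not pass the filter on low counts in the comparisons of healthy classes and of MI against healthy Car4 or Apln cells, and all 9 genes passed it elsewhere. Members and lists were chosen with earlier results of these data known. On simulated counts of MI against healthy mice (12307 genes), 82 of 100 genes changed by a log2 value of 1 and 99 of 100 changed by 2 were recovered. Of the unchanged genes 6 were called. Far fewer genes were changed there than were called in the data, and the simulated sums shared no cells, so these rates need not hold for the data. Alternatives were DESeq2 1.42.0, no filter on low counts, leaving out each mouse, no block, thinned cells, other limits for markers and classes, no cell set aside, and leaving out copied cells.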

Additional observations from a re-analysis of the deposited data

Results flagged for a closer look

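Of 99 groups of 4 mice looked at, 7 held a mouse far from the others in the level of a gene, where chance alone would flag about 1 in 20. In cells with Mki67 or Top2a, Ccnd1 was at 292.6 CPM in Healthy 240, with the next mouse at 331.5 CPM, and Ccnd2 at 109.1 CPM in Healthy 239 (next 90.56 CPM). In Car4 cells, Ccnd1 was at 219.8 CPM in MI 256 (next 435.7 CPM) and Myc at 0.7117 CPM in Healthy 239, which is 1 UMI against 0 in the other healthy mice. In Apln cells, Ccnd2 was at 215.4 CPM in MI 255 (next 146.3 CPM), Cdkn2d at 70.15 CPM in MI 250 (next 55.38 CPM) and Myc at 24.37 CPM in MI 255 (next 9.865 CPM).

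The difference between cells with and without Mki67 or Top2a differed between MI and healthy mice for Ccnd2 by 0.49, for Cdkn2c by -0.78 and for Myc by -3.56 on the log2 scale, and that between Apln and Car4 cells for Ccnd1 by -0.62, for Cdkn2c by -1.40 and for Mycn by -1.65. Depth also differed, with median UMIs per cell of 2667 in healthy and 4777 in MI Apln cells and 1990 and 3303 in Car4 cells, and its part was not tested beyond thinning. In thinned cells the former differences were 0.16 for Ccnd2, -0.08 for Cdkn2c and -3.19 for Myc (adjusted p from edgeR 0.863, 0.942 and 0.175), and the latter -0.63 for Ccnd1, -0.41 for Cdkn2c and -1.81 for Mycn (0.0384, 0.924 and 3.60e-07). Healthy marked cells held 8 UMIs of Myc in all.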

How the results depend on the processing

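Of 1833 log2 fold changes of the 9 genes under alternatives, 1695 stayed on their side of the threshold, 115 lost the call, 17 gained it and 6 reversed. Of these 1695, 96 had the other sign and were called in neither fit. In MI against healthy mice over all cells, Cdkn1b, Cdkn2c, Cdkn2d and Myc remained called in 15 of 15 alternatives. With the gate on thinned cells, Cdkn1a rose to 0.19 in marked MI cells (adjusted p = 0.0470) and Ccnd1 was at -0.38 in marked healthy cells (adjusted p = 0.00842). Without cycling cells in the classes, Apln minus Car4 became -0.24 for Cdkn2c and -0.49 for Cdkn2d, and Plvap-high minus Apln 0.56 and 0.64. The cause of other changes was not tested.

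Without the replicate block, so ignoring that both sums came from 1 mouse, members called went from 5 to 3 in marked against unmarked MI cells, from 3 to 0 in its difference between groups, from 5 to 2 in Apln against Car4 MI cells and from 3 to 0 in its difference between groups, and no other count of members moved by over 1.5 times.

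Members called in MI against healthy mice ranged over the single mice left out from 2 to 5 in unmarked cells (3 with all mice), from 0 to 1 in marked cells (2), and from 1 to 4 in Car4 cells (4), and they ranged from 1 to 3 in the difference of marked cells between groups (3) and from 2 to 5 in Apln against Car4 MI cells (5). In marked cells the 2 calls became 1 without copied cells in Healthy 228 and 227 or with at least 2 marker UMIs, and 0 without copied cells in every library (2 healthy mice left), in thinned cells or with the gate on thinned cells. In the difference of marked cells between groups the 3 became 1 without copied cells in every library (2 healthy mice left) or with no cell set aside and 0 in thinned cells. In thinned cells, where Myc could not be tested between classes, 1 of 5 remained in Apln against Car4, 5 of 8 in Plvap-high against Apln and 2 of 4 in MI against healthy Car4 cells. Car4 cells also gave 2 with no cell set aside, Apln against Car4 gave 2 without cycling cells, and MI against healthy Apln cells gave 2 with no filter on low counts (1 with it). Shares of cells were higher post-MI for 5 genes thinned and 9 at full counts. MI and healthy Plvap-high cells could not be fitted, with 2 to 3 healthy cells per mouse.

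Of 211 counts of all genes called, 52 moved by over 1.5 times. Thinning cut them in each of the 13 comparisons, from 4698 to 2678 over all cells, 4254 to 2330 in unmarked and 526 to 88 in marked cells, 5113 to 2158 (MI) and 3168 to 1426 (healthy) for marked against unmarked cells and 874 to 332 for their difference. Within classes it cut them from 1649 to 592 (Apln and Car4, MI), 2964 to 1105 (Plvap-high and Car4), 2771 to 915 (Plvap-high and Apln), 1560 to 584 (Apln and Car4, healthy), 1457 to 447 (MI and healthy Car4), 494 to 158 (MI and healthy Apln) and 295 to 52 (difference of Apln and Car4 between groups). Without the block, 5113 became 2464, 874 became 183, 1649 became 876, 2771 became 1793 and 295 became 62. DESeq2 gave 924 for 1649, 1745 for 2771, 810 for 1560 and 164 for 295. Without copied cells in every library, 526 became 28, 3168 became 1917, 874 became 380, 1560 became 641, 494 became 151 and 295 became 114, but the first 3 of these fits then held 2 and the last 3 held 3 healthy mice in place of 4, which cannot be told apart from the copies, and without those of Healthy 228 and 227 295 became 177. Other limits gave 294 or 242 for 526, 565 for 874, 805 for 494 and 150 for 295. Leaving out 1 mouse moved the 526 to 306, 217, 262 or 310 (Healthy 227 or 228, MI 244 or 255), 874 to 459 or 524 (Healthy 239 or 240), 1649 to 1052 (MI 250), 1457 to 776, 695 or 955 (MI 244, 250 or 255), 494 to 294, 272, 300 or 297 (Healthy 228, 239 or 240, MI 255) and 295 to 164, 168, 175 or 191 (Healthy 227, 228 or 239, MI 250), so the shares of all genes given beside those comparisons move as well.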
